A study of Homo sapiens with 10 samples.

Results

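The pyruvate dehydrogenase genes described here are the kinases PDK1, PDK2, PDK3 and PDK4, the subunits PDHA1, PDHB, DLAT and PDHX, and the phosphatases PDP1 and PDP2. They were taken by symbol, and all 10 were found among the 26485 genes listed in the files. Polyadenylated RNA was sequenced from SW480, an established line of human colorectal cancer cells of wild-type genotype, grown in medium with fetal bovine serum. Cells were divided by flow sorting with an antibody to the receptor ROBO1 into ROBO1pos cells, which the labels name SW480-CBC, and ROBO1neg cells, named SW480-RSC, with 5 libraries each. No treatment or time course was applied, and the 1 comparison is ROBO1pos against ROBO1neg. Whether replicates were separate cultures is not stated, so each p-value reflects library-to-library spread that could be technical.

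The pyruvate dehydrogenase complex sits in the mitochondrial matrix and turns pyruvate, the end product of glycolysis, into acetyl-CoA for the citric acid cycle and lipid synthesis. The pyruvate dehydrogenase kinases phosphorylate its first enzyme and switch it off, and the phosphatases remove the phosphate and switch it on again. Tumour cells often express the kinases strongly, and PDK1 is a textbook target of hypoxia-inducible factors, whereas PDK4 responds to fasting, fatty acids and glucocorticoids.

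Gene totals ran from 23228686 to 29539100 reads per library, so that 1 CPM (a count scaled to library size by TMM) stood for 23.2 to 29.5 reads. ROBO1 itself, the sorted receptor, had 430 ± 26.7 CPM in ROBO1pos versus 7.25 ± 1.47 in ROBO1neg (SD, n = 5), which checks the labels. Of the reads that the files list, 58.7% were on genes in ROBO1pos libraries and 63.4% in ROBO1neg libraries. Of the 7 colon epithelial markers, all were detected and tested, with VIL1 at 503 CPM in ROBO1pos versus 27.7 in ROBO1neg and KRT8 at 2165 and 3755. The 5 haematopoietic markers summed to between 1.05 and 2.02 CPM per library, with HBB at 0 in every library. The 4 endothelial markers summed to 0.504 to 0.889 CPM in ROBO1pos and 2.34 to 4.25 in ROBO1neg, and the 6 fibroblast markers to 9.03 to 13.1 and 12.3 to 18.1, with COL3A1 at 0 in every library. The fibroblast sum hides opposite directions: LUM (3.73 ± 1.79 CPM in ROBO1pos against 0.0309 ± 0.0427) and COL1A2 (1.97 ± 1.53 against 0.353 ± 0.172) were called higher in ROBO1pos and COL1A1 (4.87 ± 0.702 against 14.3 ± 2.65) higher in ROBO1neg, while the other 3 were not tested. The part of other cells in the results below was not tested. In bulk RNA a smaller number of expressing cells and less RNA per cell cannot be told apart.

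The widest differences among the 10 genes were in regulators of the complex. PDK3 was 7.23-fold higher in ROBO1pos and PDP1 was 3.27-fold higher in ROBO1neg, while PDHA1 and PDHB, the subunits of its first enzyme, differed by less than the spread between libraries. All 10 genes had enough counts to be tested, from 61 reads in the lowest library (PDK4) to 10141 in the highest (PDP1). By edgeR's quasi-likelihood test with adjustment over all 14932 genes tested, PDK1, PDK3, DLAT, PDHX and PDP2 (5 genes) had more RNA in ROBO1pos, PDK4 and PDP1 (2 genes) had more in ROBO1neg, and PDK2, PDHA1 and PDHB (3 genes) did not pass. Over all genes tested, 82.0% were called, 41.6% as higher in ROBO1pos and 40.4% as higher in ROBO1neg, so a call is the usual outcome in this comparison and the number of calls among the 10 genes does not set them apart. The same 7 genes had no overlap of libraries between the groups, against 71.9% of all genes. In a test against a 1.5-fold difference, PDK1, PDK3 and PDHX passed as higher in ROBO1pos and PDK4 and PDP1 as higher in ROBO1neg, against 41.8% of all genes. The median log2 fold change of the 10 genes (ROBO1pos minus ROBO1neg) was 0.22, against 0.019 over all genes tested.

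**Figure D1:**
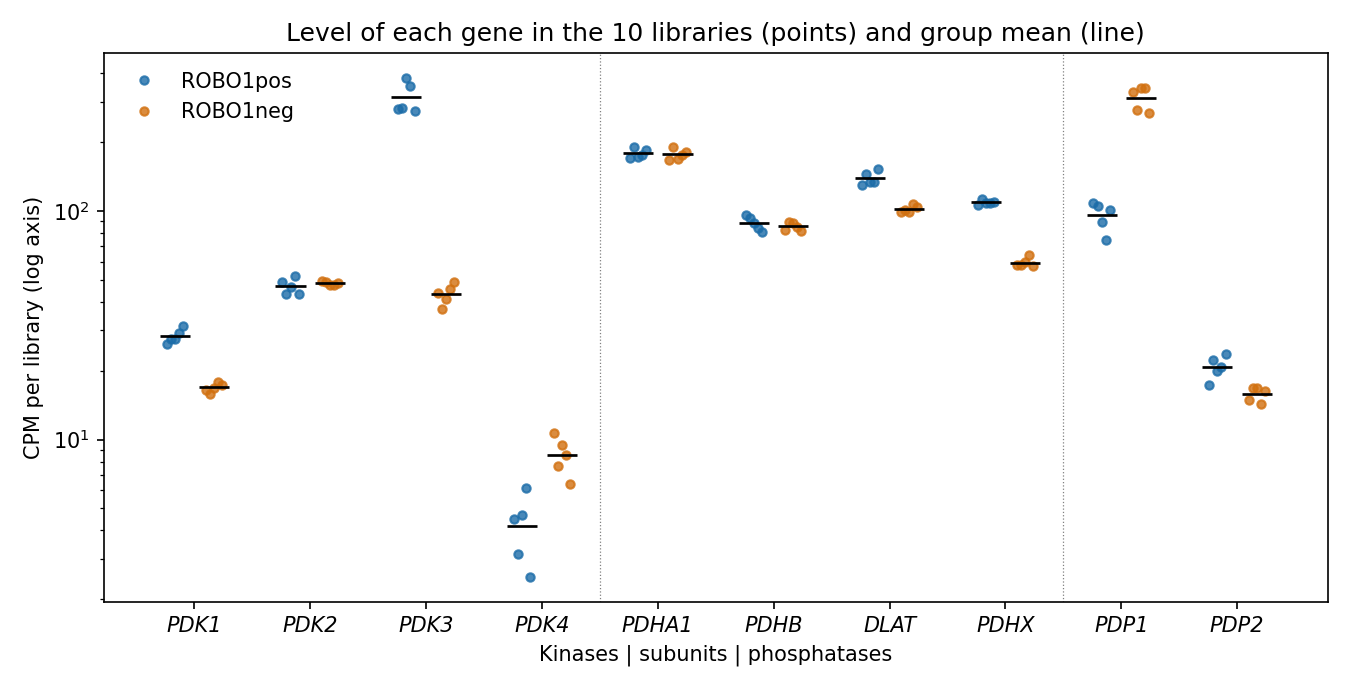
Level of each of the 10 genes in CPM on a log axis, with 1 point per library and a line at the mean of each group (n = 5). PDK3 and PDP1 lie far apart between ROBO1pos (blue) and ROBO1neg (orange), in opposite directions, and the points of PDK2, PDHA1 and PDHB overlap.

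The promoters of the 3 kinase genes that differed are shown because these genes differed in both directions, PDK3 and PDK1 on the ROBO1pos side and PDK4 on the ROBO1neg side. Each line gives the 250 bases before an annotated start, from RefSeq for GRCh38.p14, on the gene's strand. PDK3 lies at chrX:24465036-24465285 on the plus strand, PDK1 at chr2:172555840-172556089 on the plus strand (the downstream of its 2 starts in the table), and PDK4 at chr7:95596517-95596766 on the minus strand. Capitals mark the letters ACGTG or their reverse complement CACGT, 1 form of the core of hypoxia response elements. Other forms of the core were not searched.
PDK3: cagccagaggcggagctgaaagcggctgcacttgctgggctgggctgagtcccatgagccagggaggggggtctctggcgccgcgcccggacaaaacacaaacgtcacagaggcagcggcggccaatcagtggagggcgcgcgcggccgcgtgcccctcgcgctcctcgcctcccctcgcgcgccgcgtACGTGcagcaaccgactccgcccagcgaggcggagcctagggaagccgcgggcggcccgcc
PDK1: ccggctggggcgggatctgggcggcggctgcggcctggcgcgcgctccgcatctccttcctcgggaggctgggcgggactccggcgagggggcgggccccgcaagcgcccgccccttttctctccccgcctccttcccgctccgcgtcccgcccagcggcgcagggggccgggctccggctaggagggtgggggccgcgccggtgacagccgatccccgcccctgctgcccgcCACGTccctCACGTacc
PDK4: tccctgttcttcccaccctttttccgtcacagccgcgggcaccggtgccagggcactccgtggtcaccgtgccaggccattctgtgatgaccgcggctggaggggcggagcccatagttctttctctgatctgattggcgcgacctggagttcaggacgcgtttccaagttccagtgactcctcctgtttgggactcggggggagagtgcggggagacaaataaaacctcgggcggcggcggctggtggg
This form of the core was found 1 time for PDK3, at position -61 from the start, and 2 times in this window of PDK1. It was found 0 times for PDK4 and for the upstream window of PDK1. It was present in 18.5% of all 35116 windows of this length in the table, so a match by itself is common. Among the members not shown, PDHB and PDP2 had 3 matches each. PDK2 had 2 in 1 of its windows, PDHX 1 in 1 of its windows, DLAT 1 and PDHA1 0. CACGTG reads the same on both strands and counts as 2. PDK2 and PDHB, which were not called, thus held matches too. GGGCGG, the GC box, or its reverse complement CCGCCC occurred 2 times for PDK3, 7 times for this window of PDK1 and 2 times for PDK4, against at least 1 match in 42.6% of all windows. GTAAACA, a forkhead element, or its reverse complement TGTTTAC occurred in none of the 3 windows shown, against 2.98% of all windows. These are matches of letters and say nothing on whether a factor binds. Of the 10 genes, 9 had windows in the table, and PDP1 was the other.

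Among the kinases, PDK3 carried the difference. PDK3, an isoform with a narrower normal tissue distribution than PDK2, was at 280.3, 282, 382, 350.3 and 273 CPM in ROBO1pos replicates 1 to 5 and at 43.8, 37.3, 41.2, 45.6 and 48.8 CPM in ROBO1neg replicates 1 to 5. The lowest ROBO1pos library was thus several times above the highest ROBO1neg library, and replicates 3 and 4 were the highest of ROBO1pos. Its log2 fold change was 2.85 (SE 0.10, edgeR adjusted p = 9.3e-12), and 9.50% of all genes tested had a larger one in size. PDK3 lies on the X chromosome (24465286 to 24550466, GRCh38.p14), where the median of its 40 nearest tested genes was 0.46 on the same scale. With that median removed the difference was 2.39.

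PDK1, the kinase best known from hypoxia, was also higher in ROBO1pos, by less. Its libraries held 26.2, 27.5, 27.5, 29.3 and 31.4 CPM in ROBO1pos and 16.5, 15.9, 16.9, 17.9 and 17.4 CPM in ROBO1neg, with no overlap. This was a log2 fold change of 0.75 (SE 0.06, edgeR adjusted p = 5.2e-08), and its 40 neighbours on chromosome 2 had a median of 0.00075.

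PDK4, the fasting-responsive kinase, went the other way and was the lowest of the 10 genes in reads. It was at 4.49, 3.15, 4.69, 6.14 and 2.51 CPM in ROBO1pos and 10.7, 7.67, 9.46, 8.56 and 6.42 CPM in ROBO1neg. The groups did not overlap, but the highest ROBO1pos library and the lowest ROBO1neg library were close. Its log2 fold change was -1.03 (SE 0.21, edgeR adjusted p = 3.8e-04). PDK4 also varied most among replicates, with a coefficient of variation of 33.8% in ROBO1pos and 19.0% in ROBO1neg, against a median of 7.95% and 7.52% over all genes tested.

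PDK2, the most widely expressed of the kinases, did not differ detectably. Its libraries held 48.9, 43.4, 46.3, 51.9 and 43.3 CPM in ROBO1pos and 49.5, 48.9, 47.2, 47.6 and 48.1 CPM in ROBO1neg, and the ROBO1neg values lay inside the range of ROBO1pos. The log2 fold change was -0.046 with a 95% confidence interval of -0.16 to 0.066 (edgeR adjusted p = 0.42). The 40 nearest tested genes on chromosome 17 had a median of -0.61, so PDK2 lay above its neighbours by 0.57. In GENCODE v29, 54.6% of the exonic length of PDK2 overlaps SAMD14 on the opposite strand. SAMD14 was at 0.999 ± 0.556 CPM in ROBO1pos versus 1.51 ± 0.142 in ROBO1neg (n = 5). No source used here says whether the counting used strand.

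The make-up of the kinase reads thus differed between the populations. PDK3 made up 79.6% ± 2.07 of all PDK reads in ROBO1pos and 37.0% ± 2.44 in ROBO1neg (SD, n = 5). PDK2 made up 12.0% ± 1.27 and 41.3% ± 1.94, which made it the largest mean share in ROBO1neg by reads, though in ROBO1neg replicate 5 PDK3 was slightly ahead (40.4% to 39.9%). PDK1 made up 14.5% ± 0.472 of the kinase reads in ROBO1neg and 7.33% ± 1.12 in ROBO1pos although its own level was higher in ROBO1pos, and PDK4 made up 1.05% ± 0.276 in ROBO1pos and 7.31% ± 1.35 in ROBO1neg. For each of the 4 shares the exact two-sided permutation p over all assignments of the libraries was 0.00794 (0.00794 after adjustment over the 4), the smallest that 5 against 5 libraries can give, and the 4 shares are not independent since they add up to the whole. Reads grow with transcript length. Per kilobase of exon PDK3 made up 89.0% ± 1.19 of the kinases in ROBO1pos and 51.7% ± 2.84 in ROBO1neg. PDK1, divided by 14.253 kb of exon, made up 1.45% and 3.57% on this scale, so these shares depend on that length too. PDK3 then had the largest mean share in both populations, but in ROBO1neg this depends on the length used. With the median length of coding transcripts, a choice made after seeing the data, PDK2 led in ROBO1neg. PDK2 was then at 61.8 CPM per kb, against 23.2 for PDK3. That length was 0.781 kb for PDK2, against 3.873 kb of exon, and 1.865 kb for PDK3, against 2.513 kb. The lead of PDK2 thus rests on a median far shorter than its exonic length. In ROBO1pos PDK3 stayed ahead, at 168 CPM per kb against 59.9 for PDK2. The 4 genes summed to 351 to 460.1 CPM in ROBO1pos and 109.7 to 121 in ROBO1neg. Without PDK3 the sum was 74.0 to 87.4 in ROBO1pos and 71.9 to 76.7 in ROBO1neg, and these ranges overlapped.

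**Figure D2:**
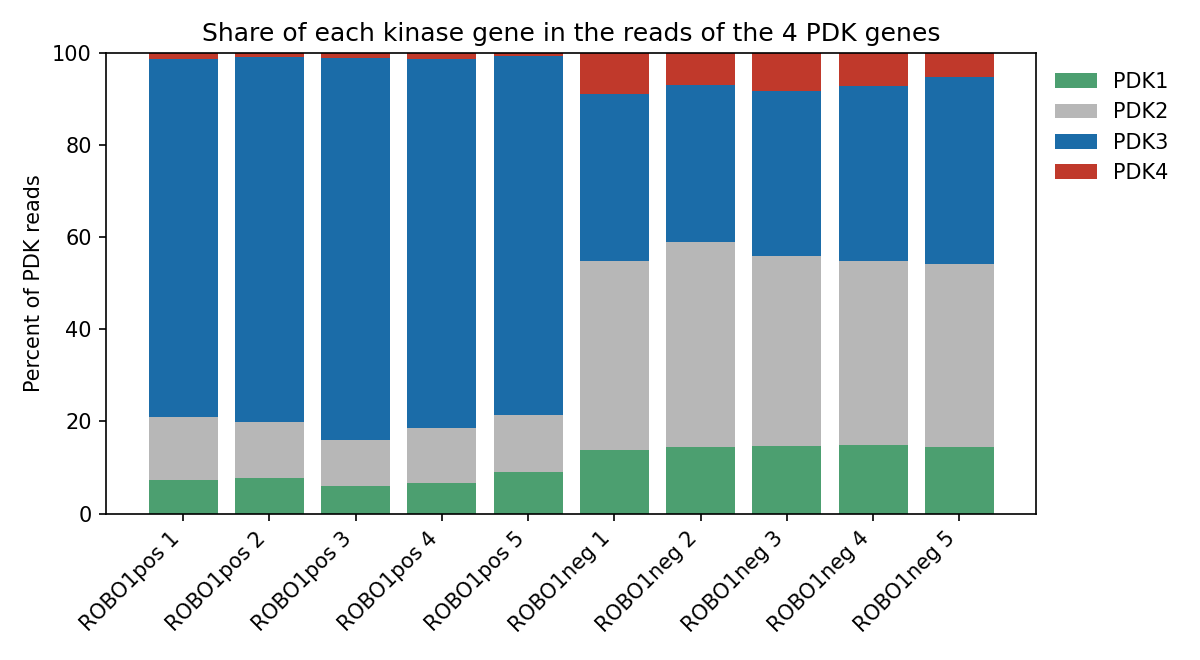
Share of PDK1, PDK2, PDK3 and PDK4 in the reads of the 4 kinase genes, in percent, with 1 bar per library. PDK3 takes between 77.9% and 82.9% in the ROBO1pos libraries and between 34.0% and 40.4% in the ROBO1neg libraries.

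The phosphatases showed the reverse pattern, through PDP1. PDP1, the calcium-stimulated catalytic subunit on chromosome 8, was at 109, 105, 89.0, 74.6 and 101 CPM in ROBO1pos and at 329.9, 277, 344, 346 and 267 CPM in ROBO1neg. Every ROBO1neg library was above every ROBO1pos library, and replicates 3 and 4 were the lowest of ROBO1pos. The log2 fold change was -1.71 (SE 0.10, edgeR adjusted p = 1.9e-09), and 17.1% of all genes tested had a larger one in size. Its 40 nearest tested genes had a median of 0.14, on the other side of 0.

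PDP2, the phosphatase that does not depend on calcium, was slightly higher in ROBO1pos. It was at 17.3, 22.3, 19.9, 20.7 and 23.7 CPM in ROBO1pos and at 14.9, 16.8, 16.8, 14.3 and 16.3 CPM in ROBO1neg. The groups were separated by less than 1 CPM at their nearest libraries, and the log2 fold change was 0.40 (SE 0.09, edgeR adjusted p = 6.5e-04). For each PDP2 read there were 4.66 ± 0.991 PDP1 reads in ROBO1pos versus 19.9 ± 3.48 in ROBO1neg (SD, n = 5). PDPR, the regulatory subunit of the phosphatase, was at 98.5 ± 5.76 and 98.6 ± 7.78 CPM (log2 fold change -0.0022, 95% confidence interval -0.13 to 0.12).

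Set against each other, kinase reads outnumbered phosphatase reads in every ROBO1pos library and were outnumbered in every ROBO1neg library. The ratio of PDK reads to PDP reads was 2.85, 2.79, 4.22, 4.59 and 2.81 in ROBO1pos replicates 1 to 5 and 0.350, 0.374, 0.318, 0.332 and 0.427 in ROBO1neg replicates 1 to 5. The mean ratio in ROBO1pos was 9.60 times that in ROBO1neg. These are ratios of reads and not of proteins or of enzyme activity, and the sum hides the members that moved against it (PDK4 and PDP2). The ratio of PDK3 to PDP1 was highest in ROBO1pos replicates 3 and 4, at 4.29 and 4.70, and lay between 2.58 and 2.71 in the other ROBO1pos libraries. In ROBO1neg it ran from 0.120 to 0.183. PDK3 and PDP1 were more variable between replicates than the median gene in both groups, with coefficients of variation of 15.7% and 14.6% in ROBO1pos and 10.1% and 12.2% in ROBO1neg.

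**Figure D3:**
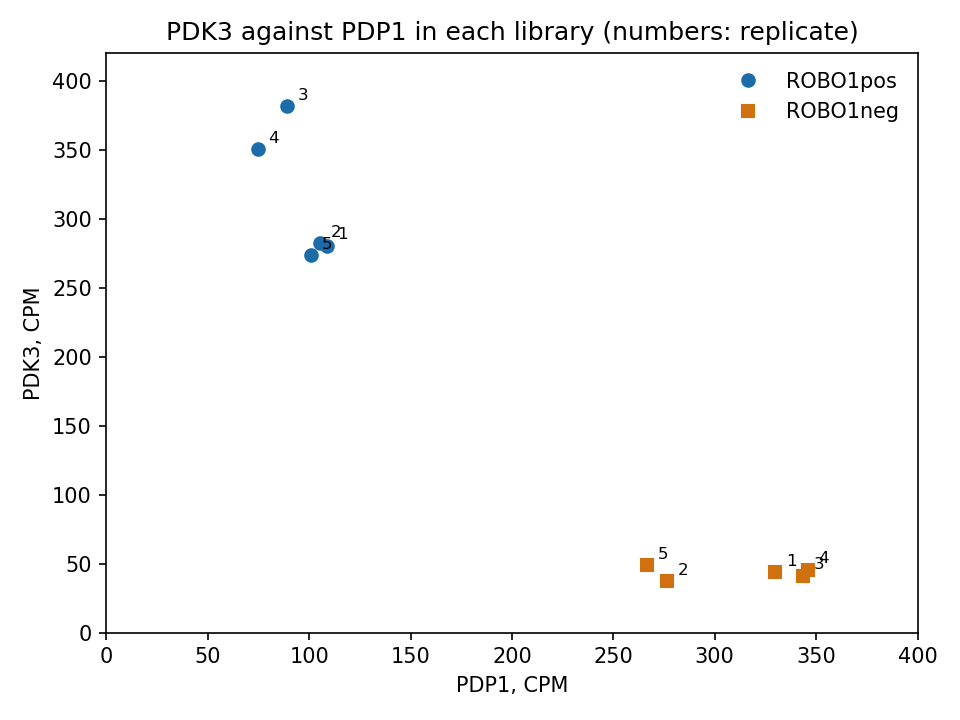
PDK3 against PDP1, both in CPM on linear axes, with 1 point per library and the replicate number beside it. The ROBO1pos libraries (circles) sit at 273 to 382 CPM of PDK3 and 74.6 to 109 of PDP1, and the ROBO1neg libraries (squares) at 37.3 to 48.8 of PDK3 and 267 to 346 of PDP1.

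The subunits divided between the first enzyme and the core. PDHA1 encodes the alpha subunit of the first enzyme, which carries the serines that the kinases phosphorylate. It was at 171, 191, 173, 175 and 184 CPM in ROBO1pos and 167, 191, 168, 176 and 182 CPM in ROBO1neg, with the 2 sets of values almost on top of each other. The log2 fold change was 0.015 with a 95% confidence interval of -0.086 to 0.12 (edgeR adjusted p = 0.77).

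PDHB, the beta subunit of the first enzyme, also overlapped fully. It was at 96.0, 93.3, 88.5, 84.3 and 81.2 CPM in ROBO1pos and at 82.9, 89.5, 88.6, 85.2 and 81.5 CPM in ROBO1neg. The log2 fold change was 0.052 with a 95% confidence interval of -0.057 to 0.16 (edgeR adjusted p = 0.35). PDHB lies on chromosome 3 from 58427630 to 58433832 (GRCh38.p14), and its 40 nearest tested genes had a median of -0.92. It therefore lay 0.97 above its neighbours, the largest such offset among the 3 genes that were not called. Whether the neighbourhood bears on PDHB was not tested.

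DLAT encodes the acetyltransferase that forms the core of the complex. It was at 130.4, 145, 134, 134 and 152 CPM in ROBO1pos and at 98.8, 101, 99.0, 107 and 104 CPM in ROBO1neg, with no overlap. This gave a log2 fold change of 0.45 (SE 0.05, edgeR adjusted p = 6.9e-07).

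PDHX encodes the protein that binds the third enzyme to that core. It was at 106, 112, 108, 109 and 109.8 CPM in ROBO1pos and at 58.0, 58.0, 59.6, 64.2 and 57.5 CPM in ROBO1neg. These were the tightest ROBO1pos replicates of the 10 genes, with a coefficient of variation of 2.15%, and the log2 fold change was 0.87 (SE 0.04, edgeR adjusted p = 8.7e-11). DLAT and PDHX lie on different arms of chromosome 11, and their neighbours had medians of 0.047 and -0.012. In GENCODE v29, 8.94% of the exonic length of PDHX overlaps APIP on the opposite strand, and APIP was at 64.0 ± 5.55 CPM in ROBO1pos versus 42.1 ± 1.79 in ROBO1neg (n = 5). DLD, the third enzyme, which other dehydrogenase complexes share, was higher in ROBO1pos as well, at 213 ± 16.2 against 154 ± 7.02 CPM (log2 fold change 0.47, SE 0.05, edgeR adjusted p = 1.7e-06).

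The ratios between subunits differed both between the first enzyme and the core and within the core. PDHB had 0.497 ± 0.0443 reads for each PDHA1 read in ROBO1pos versus 0.485 ± 0.0292 in ROBO1neg (SD, n = 5). DLAT had 0.778 ± 0.0273 reads for each PDHA1 read in ROBO1pos versus 0.578 ± 0.0294 in ROBO1neg. PDHX had 0.785 ± 0.0378 reads for each DLAT read in ROBO1pos versus 0.583 ± 0.0202 in ROBO1neg. The first ratio overlapped between the groups and the other two did not.

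**Figure D4:**
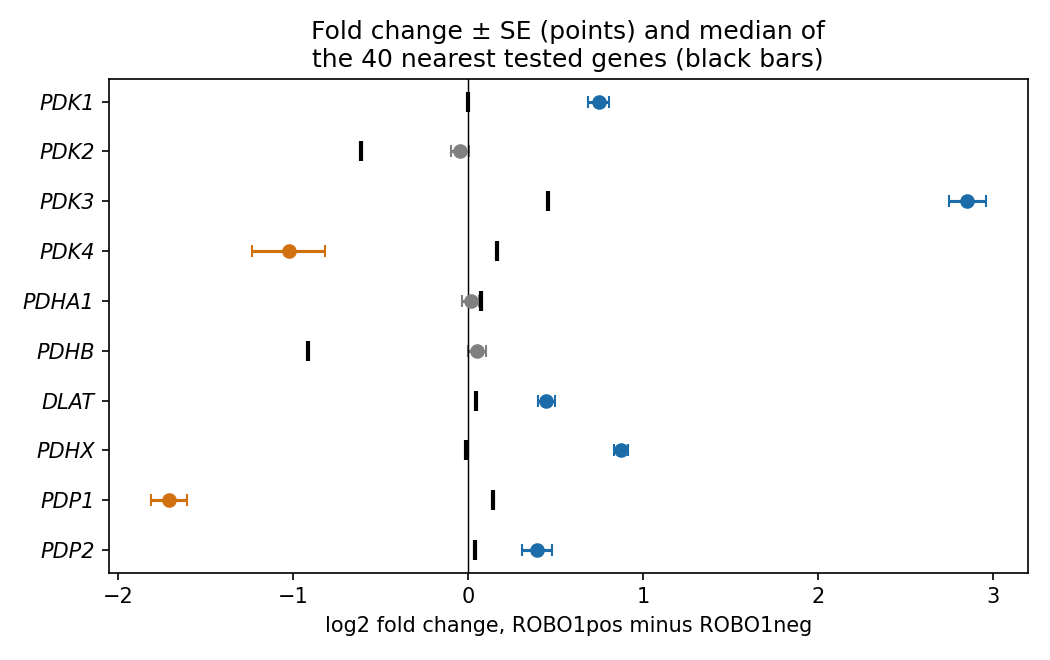
Log2 fold change of each gene (ROBO1pos minus ROBO1neg, points with SE) and median log2 fold change of its 40 nearest tested genes on the chromosome (black bars). Blue points were called higher in ROBO1pos, orange points higher in ROBO1neg and grey points were not called. PDHB and PDK2 lie near 0 beside neighbours with medians of -0.92 and -0.61.

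Levels can be compared between genes only per length, here as CPM per kilobase of GENCODE v29 exon, with DLD and PDPR added for 12 genes in all. In ROBO1pos PDK3 was highest, at 125 ± 19.6 CPM per kb, above DLD at 56.5 ± 4.31, PDHB at 53.6 ± 3.71 and PDHA1 at 47.5 ± 2.22. The ranges of DLD and PDHB overlapped, as did those of PDHB and PDHA1. PDHX at 37.6 ± 0.809, DLAT at 31.2 ± 2.00, PDP1 at 20.7 ± 3.03, PDK2 at 12.1 ± 0.956 and PDPR at 10.5 ± 0.617 followed, and the last pair overlapped. PDP2, PDK1 and PDK4 were at 2.91, 1.99 and 1.17 CPM per kb. In ROBO1neg PDP1 was highest, at 67.8 ± 8.24 CPM per kb, above PDHB at 51.8 ± 2.11 and PDHA1 at 47.0 ± 2.58, whose ranges overlapped. DLD was at 40.8 ± 1.87, DLAT at 22.9 ± 0.776, PDHX at 20.5 ± 0.961, PDK3 at 17.2 ± 1.75 and PDK2 at 12.5 ± 0.244, and the ranges of DLAT and PDHX overlapped. PDPR at 10.6 ± 0.834, PDK4 at 2.39 ± 0.456, PDP2 at 2.21 ± 0.163 and PDK1 at 1.19 ± 0.0546 completed the order, and the ranges of PDK4 and PDP2 overlapped. The order depends on the length used. With the median length of coding transcripts, a choice made after seeing the data, PDK3 was second in ROBO1pos at 168 CPM per kb, behind PDHA1 at 243. PDP1 was then first in ROBO1neg at 243, beside PDHA1 at 241. These places rest on short medians, 0.734 kb for PDHA1 against 3.763 kb of exon and 1.284 kb for PDP1 against 4.614 kb. PDK1, with 14.253 kb of exon and a median of 1.1785 kb, moved to 24.1 CPM per kb in ROBO1pos. In ROBO1neg PDK1 moved to 14.4 CPM per kb, above PDK4 at 2.39.

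Of the genes whose profile over the 10 libraries was most like that of PDK3, the nearest were KCNA6, CCDC78, TMPRSS2, NR4A2 and CABLES1, with root mean square distances of 0.12 to 0.15 between centred log2 CPM values. KCNA6, a voltage-gated potassium channel, was at 64.3 ± 5.99 CPM in ROBO1pos versus 8.23 ± 1.01 in ROBO1neg, and TMPRSS2, a membrane serine protease, at 44.6 ± 4.52 and 5.95 ± 0.703. For PDP1 the nearest were HOXD11, OGDHL, CMTM3, ADPRH and PDLIM3, with distances of 0.11 to 0.14. With only 2 groups, this measure mostly reflects the size of the difference between them.

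Of the 11 tested genes for other parts of the complex, for its cofactors and for pyruvate import, 7 passed as higher in ROBO1pos, 0 passed in the other direction and 4 missed the threshold (median log2 fold change 0.40). Over all genes tested 41.6% were called higher in ROBO1pos and 82.0% in either direction, and the difference of these genes from the rest was not tested. PDPR, LIPT1 and LIPT2 were among the 4, and with upper quartile scaling LIPT2 passed as higher in ROBO1pos (edgeR adjusted p = 0.035). LIAS, which makes the lipoyl group carried by DLAT and PDHX, was at 25.2 ± 1.54 CPM in ROBO1pos versus 11.0 ± 0.222 in ROBO1neg, so that its log2 fold change was 1.20 with SE 0.06 (edgeR adjusted p = 2.0e-10). SLC19A2, a thiamine transporter, was at 31.7 ± 1.82 and 13.5 ± 0.995, and SLC19A3, another thiamine transporter, at 0.737 ± 0.177 and 0.0465 ± 0.0325 CPM. PDHA2, the testis form of the alpha subunit, had too few counts to be tested.

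The sister complexes, which oxidise 2-oxoglutarate, 2-oxoadipate and branched-chain 2-oxoacids, divided, with 5 of 9 higher in ROBO1pos, 3 higher in ROBO1neg and a median of 0.18. All genes tested divided too, with 41.6% called higher in ROBO1pos and 40.4% higher in ROBO1neg. The kinase of the branched-chain complex, BCKDK, was lower in ROBO1pos, at 29.5 ± 0.818 against 39.8 ± 2.12 CPM (log2 fold change -0.43, SE 0.05, edgeR adjusted p = 1.3e-06), a direction opposite to that of PDK3. Its dehydrogenase subunit BCKDHA was at 89.8 ± 4.27 CPM in ROBO1pos versus 49.9 ± 3.06 in ROBO1neg, and its core protein DBT at 56.7 ± 1.92 and 41.8 ± 2.82. BCKDHA lay among genes with a median of 0.57. OGDHL, a form of the 2-oxoglutarate dehydrogenase, was at 14.3 ± 0.676 CPM in ROBO1pos versus 48.5 ± 5.19 in ROBO1neg, while DHTKD1, which acts on 2-oxoadipate, was at 73.3 ± 3.17 and 61.8 ± 2.05. DLST, the core of the 2-oxoglutarate complex, was called in favour of ROBO1neg (log2 fold change -0.098) at an edgeR adjusted p of 0.023, but not with upper quartile scaling (0.36), with library size only (0.057), without ROBO1pos replicate 3 (0.053) or without ROBO1neg replicate 4 (0.061). PPM1K, the phosphatase of the branched-chain complex, was also near the threshold and was not called with the filter of at least 1 count (0.065) or in the fits without ROBO1pos replicates 2, 4 or 5 or without ROBO1neg replicates 2, 3 or 4.

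Enzymes that make or use pyruvate, lactate and acetyl-CoA also divided, with 8 of 16 higher in ROBO1pos, 7 higher in ROBO1neg and a median of 0.015. The shares over all genes tested were 41.6% and 40.4%, so a division of this kind does not set the list apart. ME2, the mitochondrial malic enzyme that yields pyruvate, was at 67.6 ± 6.10 CPM in ROBO1pos versus 22.3 ± 1.96 in ROBO1neg, among neighbours with a median of 0.96. LDHB, a lactate dehydrogenase subunit, was at 1040 ± 44.6 and 734 ± 45.2, and PKM, the pyruvate kinase, at 2072 ± 122 and 1635 ± 61.7. Higher in ROBO1neg were ACSS1, which makes acetyl-CoA from acetate in mitochondria, at 88.0 ± 9.84 against 8.33 ± 0.689 CPM, and SLC16A1, a carrier of lactate and pyruvate, at 606 ± 24.1 against 220.3 ± 9.27. SLC25A1, the mitochondrial citrate carrier, was at 60.5 ± 2.51 in ROBO1neg versus 31.4 ± 1.92 in ROBO1pos. PC, the pyruvate carboxylase, was the gene not called, and without ROBO1pos replicate 5 it was called higher in ROBO1neg (edgeR adjusted p = 0.023). ACSS2, a cytosolic enzyme that uses acetate and is counted among the 8, was not called in the fits without ROBO1pos replicates 1 or 2 or ROBO1neg replicates 1, 3 or 4.

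Hypoxia-responsive genes were called in both directions, with 5 of 19 higher in ROBO1pos, 10 higher in ROBO1neg, 4 not passing and a median of -0.24. Of all genes tested, 41.6% were called higher in ROBO1pos and 40.4% higher in ROBO1neg, and the difference of the list from the rest was not tested. HK2, the first enzyme of glycolysis, was at 166 ± 22.4 CPM in ROBO1pos versus 46.6 ± 3.71 in ROBO1neg, and ENO1 and PGK1, enzymes of glycolysis, were higher in ROBO1pos by 0.91 (SE 0.05) and 0.38 (SE 0.05) on the log2 scale. Their neighbours had medians of 0.75 and 0.41. NDRG1 was at 92.9 ± 3.90 CPM in ROBO1neg versus 12.6 ± 2.26 in ROBO1pos, the peptide hormone ADM at 16.4 ± 1.27 and 1.61 ± 0.348, and the mitophagy receptor BNIP3L at 141 ± 3.42 and 55.0 ± 4.52. DDIT4, an inhibitor of mTOR signalling, was among the 4, at 27.7 ± 8.84 CPM in ROBO1pos versus 40.7 ± 19.0 in ROBO1neg, with replicate 5 the highest of each group (43.4 and 72.0 CPM). Its log2 fold change was -0.56 (edgeR adjusted p = 0.067), and it was called higher in ROBO1neg with the replicate block (0.0014), with the filter of at least 1 count (0.048), without ROBO1pos replicate 5 (0.011) or without ROBO1neg replicate 3 (0.013). ALDOA, an enzyme of glycolysis counted among the 10, was not called with upper quartile scaling (edgeR adjusted p = 0.069). VEGFA, a growth factor counted among the 5, was not called in the fits without ROBO1pos replicates 1, 4 or 5 or without ROBO1neg replicates 1, 2 or 3 (edgeR adjusted p = 0.051 to 0.081).

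Fatty acid and fasting response genes split evenly, 5 of 10 being called in each direction, with a median of -0.17. Calls over all genes tested were near even as well, at 41.6% higher in ROBO1pos and 40.4% higher in ROBO1neg. HADHA, ACADM and CPT1A, of fatty acid oxidation, were higher in ROBO1pos by 0.73 (SE 0.03), 0.72 (SE 0.04) and 0.61 (SE 0.06) on the log2 scale. UCP2 and PLIN2 were higher in ROBO1neg, the same side as PDK4. UCP2, a mitochondrial carrier, was at 22.1 ± 4.81 CPM against 3.55 ± 0.495, and PLIN2, a lipid droplet coat protein, at 53.7 ± 8.66 against 27.5 ± 1.61.

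Of 16 transcriptional regulators known to act on PDK genes, 12 were called higher in ROBO1neg and 3 higher in ROBO1pos, against 40.4% and 41.6% of all genes tested. Their median log2 fold change was -0.95, against 0.019 over all genes tested, and the difference from other genes was not tested. EPAS1, a hypoxia-inducible factor, was at 199 ± 28.2 CPM in ROBO1neg versus 4.67 ± 0.552 in ROBO1pos, and HIF1A at 218 ± 9.20 and 100.4 ± 4.34. The glucocorticoid receptor NR3C1 was at 18.6 ± 1.45 CPM in ROBO1neg versus 5.14 ± 0.767 in ROBO1pos. The 3 that were higher in ROBO1pos were the orphan receptors ESRRG, at 130.2 ± 15.1 against 1.12 ± 0.500 CPM, and ESRRA, at 117 ± 6.20 against 54.6 ± 4.25, and the transcription factor MYC, at 563 ± 65.8 against 253 ± 24.6. ESRRG lay among neighbours with a median of 0.83. ARNT and FOXO3, called in favour of ROBO1neg (log2 fold changes -0.11 and -0.16), were not called with upper quartile scaling or with library size only. The call was also lost for ARNT without ROBO1pos replicates 2 or 3 or ROBO1neg replicate 1, and for FOXO3 without ROBO1pos replicates 1 or 5 or ROBO1neg replicates 3 or 4.

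**Figure D5:**
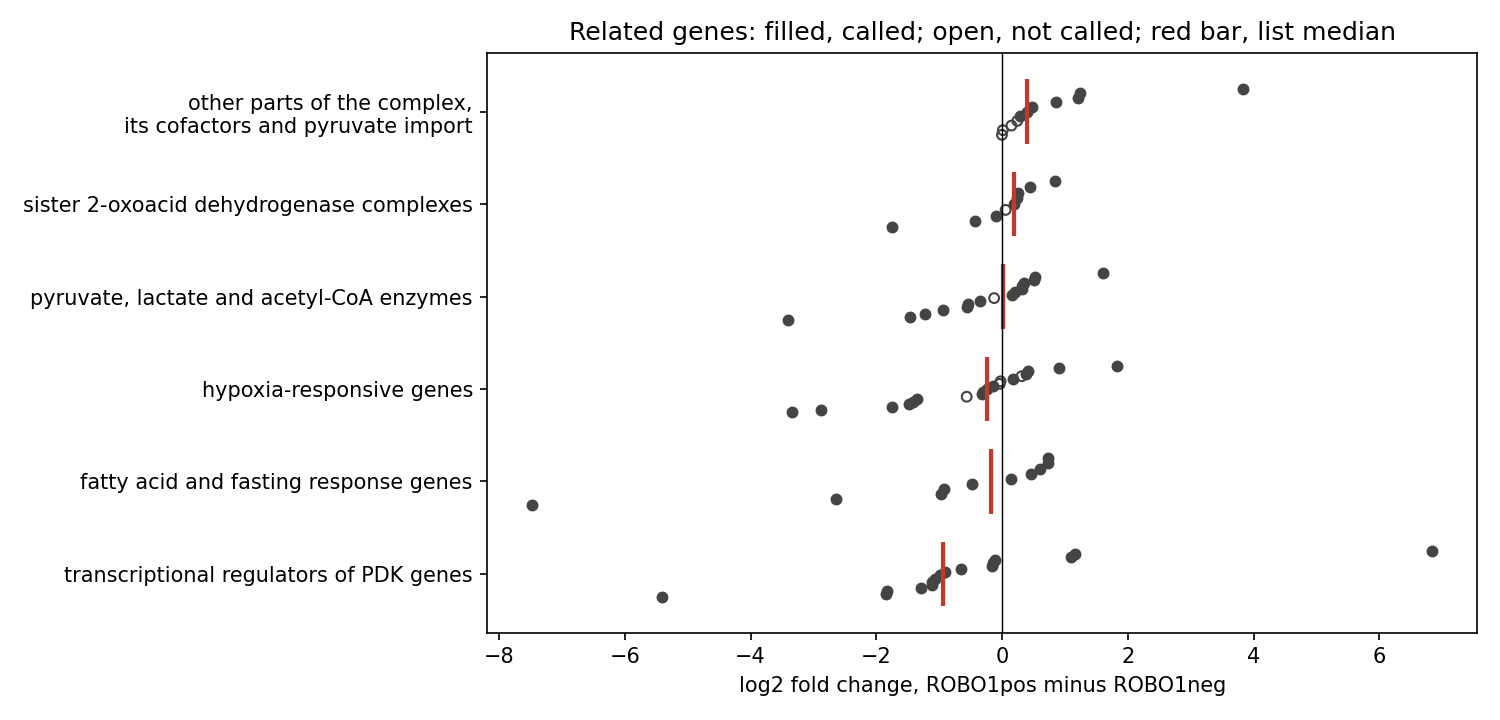
Log2 fold change (ROBO1pos minus ROBO1neg) of the tested genes of 6 related lists, with 1 point per gene, filled where called and open where not, and the median of each list as a red bar. The medians run from -0.95 for the transcriptional regulators of PDK genes to 0.40 for the other parts of the complex, its cofactors and pyruvate import.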

How the data were processed

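For each of the 10 libraries the authors deposited 1 file of raw read counts by gene symbol, with no normalisation. The library kit was stranded, per the labels' protocols. Tools named with GRCh38 are STAR 2.6.0c, SAMtools 1.9 and DESeq2 1.24.0, per the submitters' processing notes. The read counter, its strand setting and its annotation were not given in the sources used here. The 5 entries naming no gene (41.3% of listed reads in ROBO1pos, 36.6% in ROBO1neg) were left out.

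Counts were tested with edgeR 4.0.16 in R 4.3.3 (filterByExpr, TMM, quasi-likelihood, group as the only term, Benjamini-Hochberg over 14932 genes, threshold 0.05). The procedure was checked on simulated data in which far fewer genes changed than were called here. That check does not cover a comparison with so many calls. SE came from the coefficient and its F statistic. Alternatives were RLE, upper quartile and library-size scaling, 2 filters, DESeq2 1.42.0, limma-voom (limma 3.58.1), a 1.5-fold test, the replicate block, each library left out and removal of the neighbours' median. Libraries of 1 group differed by 3.55 to 22.0 times the sampling variance, so none was a duplicate. Positions came from RefSeq (GRCh38.p14, 97.7% of genes placed), exon lengths from GENCODE v29. Members and lists were chosen with earlier results of these data known. All 10 members were named, with up to 3 called genes per direction from each related list by smallest adjusted p, and the 5 genes nearest in profile to the members with the largest and smallest fold change. SAMD14, APIP and other genes were named after their values were seen. A gene chosen by this rule is not reported here.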

Additional observations from a re-analysis of the deposited data

Results flagged for a closer look

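Each group of 5 libraries was searched for a library far from the rest, over the members and the related genes named by rule, 92 groups in all, of which chance alone marks about 1 in 20. None of the 10 members had such a library in either group. EPAS1 in ROBO1neg replicate 5 was at 249.6 CPM, against 183 to 189 in the other ROBO1neg libraries. OGDHL in ROBO1pos replicate 1 was at 15.5 CPM, against 13.9 to 14.3, and PLIN2 in ROBO1pos replicate 3 at 24.7 CPM, against 27.8 to 28.6.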

How the results depend on the processing

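The counts of 5 members higher in ROBO1pos and 2 higher in ROBO1neg were the same under every scaling, filter, tool and left-out library run, except in the test against 1.5-fold. There 3 and 2 members passed, DLAT (log2 fold change 0.45) and PDP2 (0.40) no longer did, and over all genes 2938 and 3298 passed in place of 6214 and 6036. Fewer genes pass by construction of that test. With the median of the neighbours removed, a value with no test, PDK3 moved to 2.39, PDHB to 0.97, PDK2 to 0.57 and PDHA1 to -0.058. The cause was not tested. PDK2 also changed sign with upper quartile scaling (0.017) while staying uncalled.

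Leaving out 1 library at a time moved the log2 fold change of PDK3 between 2.77 and 2.90, PDP1 between -1.76 and -1.63, PDK4 between -1.20 and -0.89, PDK1 between 0.70 and 0.77, PDHX between 0.86 and 0.90, DLAT between 0.41 and 0.47 and PDP2 between 0.34 and 0.45. PDHA1 ran from -0.012 to 0.039. The replicate number as a block left 5 and 2 members called, with PDK3 at 2.85 and PDP1 at -1.71. PDK4 was at -1.05 with the block (edgeR adjusted p = 1.4e-05, against 3.8e-04 without it). Same-numbered libraries correlated at 0.062 to 0.17, which is low, but all 5 ROBO1pos libraries correlated best with the ROBO1neg library of their own number. This is a hint from the data that libraries were paired by number. The main fit, with group as the only term, and the permutation test of the PDK shares took no account of such pairing. PDK4 rests on 61 to 251 reads per library, and its coefficients of variation were 33.8% in ROBO1pos and 19.0% in ROBO1neg, which both limit its precision.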
